A study of Mus musculus with 9 samples.

Results

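The genes described are the chromatin modifiers and remodelers of mouse milk fat RNA whose symbols begin with Kdm, Kmt, Smarc or Hdac, or with Chd and a digit. They number 49 of 11206 gene identifiers listed in at least 1 library: 15 Kdm lysine demethylases, 6 Kmt lysine methyltransferases, 10 Smarc genes, 9 Chd remodelers and 9 Hdac histone deacetylases. Of 9 primiparous ICR dams (CD1 outbred mice), 4 received a high fat diet, in which fat supplied 60% of the energy at 5.24 kcal per gram. The other 5 received a control diet, in which fat supplied 10% of the energy at 3.85 kcal per gram. Both diets held 7% of energy as sucrose and were fed from 4 weeks of age, 4 weeks before mating, through lactation. Milk was taken at lactation day 10, and its fat layer, rinsed and spun again to remove cells, gave 1 total RNA library per dam. Dams shared cages in pairs within a diet, and the labels do not say which, so p-values measure the spread between these libraries.

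DNA in the nucleus is wound on histones. Methyltransferases and deacetylases change chemical marks on the histone tails, demethylases remove methyl marks, and the Smarc and Chd proteins include motors that use ATP to slide or evict nucleosomes. These enzymes act in the nucleus, whereas milk fat globules leave the mammary secretory cell wrapped in its membrane with some cytoplasm. The fat layer can also hold RNA of other cells shed into milk. In bulk RNA of this kind, fewer cells contributing a transcript and less RNA per cell cannot be told apart.

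Values are FPKM, fragments scaled to transcript length and library size. A gene has a row in a library only above 1 FPKM. A gene without a row is termed unlisted below and entered the tests as 0. The libraries carried the marks of secretory epithelium: all 14 luminal secretory markers, the caseins and Wap among them, were listed in high fat libraries 1, 2 and 4 and in every control library, and 13 in high fat 3. Their FPKM summed to 5125 to 32200 in the high fat libraries and 15310 to 31670 in the control libraries. The casein Csn2 had 162 FPKM in high fat 2, against 1491 to 3366 in the other high fat libraries and 1534 to 3478 in the control libraries. Of the 14, all tested, 2 were lower on the high fat diet, Krt18 and Epcam (limma adjusted p = 0.0403 and 0.0181), beside 20.8% of all tested genes. The other luminal markers did not pass. Lymphocyte and erythroid markers were unlisted throughout. Of 9 basal and myoepithelial markers, 4 had a row, and they summed to 0 to 6.06 FPKM in the high fat libraries and 4.22 to 10.5 in the control libraries. Of 7 adipocyte markers, 1 had a row, Fabp4, at 2.49 FPKM in control 5 alone. Of 10 endothelium and fibroblast markers, 1 had a row, Pecam1, at 1.095 FPKM in control 5 alone. Neutrophil markers summed to 94.4 FPKM in high fat 1, with 4 of 10 listed, and to 0 in the other high fat libraries, against 4.44 to 14.3 in the control libraries. Macrophage markers, of which 6 of 10 had a row, summed to 3.49 to 39.2 FPKM in the high fat libraries and 11.1 to 33.3 in the control libraries, and Lyz2 had 22.4 FPKM in high fat 3. The part of these cells in the values of the chromatin genes was not tested. Read depth is unknown from these files. The deposited confidence interval reached a median of 40.1%, 80.0%, 112% and 38.2% of the value above a listed chromatin gene in high fat libraries 1 to 4, against 26.7% to 49.9% in the control libraries.

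The first question was which of these genes could be seen in milk fat. Of the 49, high fat libraries 1 to 4 listed 37, 20, 5 and 23, against 38, 38, 48, 41 and 46 in control libraries 1 to 5. High fat 1 came within 1 gene of the control libraries and the other high fat libraries listed far fewer. Over all genes, 7974, 5123, 2075 and 4986 were listed in the high fat libraries and 8487, 7098, 8903, 8695 and 8746 in the control libraries, again with high fat 3 at the bottom and control 3 at the top. As a share of the 49, the chromatin genes stood at 10.2% in high fat 3, where 18.5% of all genes were listed, and at 98.0% and 93.9% in control 3 and control 5, where 79.4% and 78.0% of all genes were listed. In high fat 1, 2 and 4 the shares were 75.5%, 40.8% and 46.9%, beside 71.2%, 45.7% and 44.5% of all genes. In control 1, 2 and 4 they were 77.6%, 77.6% and 83.7%, beside 75.7%, 63.3% and 77.6% of all genes.

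**Figure D1:**
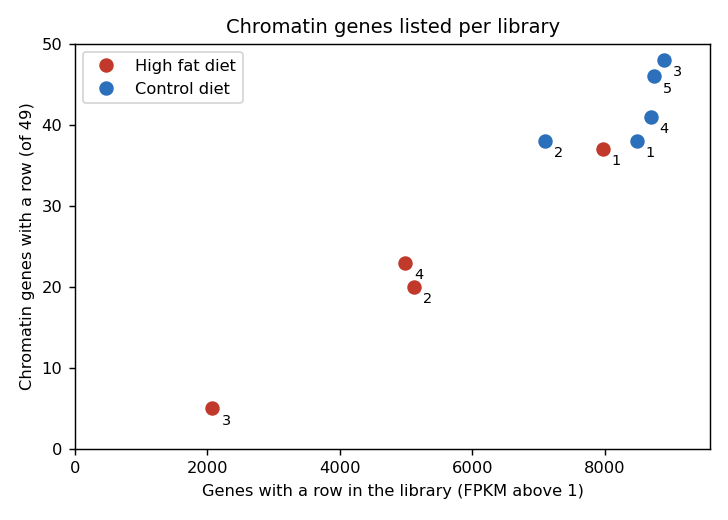
Chromatin genes with a row (vertical axis, of 49) against all genes with a row (horizontal axis) in each milk fat library, with library numbers beside the points. High fat 1, with 37 chromatin genes, sits beside the control libraries at 38 to 48, and high fat 3 stands alone at 5.

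By class, the Kdm demethylases had 12, 4, 0 and 5 of 15 genes listed in high fat libraries 1 to 4, against 12 to 15 in the control libraries. The Smarc genes had 9, 5, 1 and 6 of 10 listed in the high fat libraries, against 7 to 10 in the control libraries. The Kmt genes had 4, 1, 1 and 4 of 6 listed in the high fat libraries, against 4 to 6 in the control libraries. High fat 3 listed no demethylase, and its 5 chromatin genes, Kmt5a, Smarcd2, Chd2, Chd9 and Hdac3, were also the only ones of the 49 listed in all 9 libraries.

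High fat 2 and 4 listed similar numbers but not the same genes. They had 14 in common, while 6 were listed in high fat 2 and not in high fat 4 (Chd6, Hdac5, Hdac6, Hdac11, Kdm2b and Kdm5b) and 9 in high fat 4 and not in high fat 2 (Chd7, Hdac4, Kdm1a, Kdm4c, Kdm5a, Kmt2a, Kmt2c, Kmt2e and Smarcc2). The same overlap over all genes was not counted. Some of these genes lay near the listing limit, such as Chd6 at 1.17 FPKM in high fat 2 and Kmt2c at 1.05 in high fat 4. Others lay further above it, such as Hdac5 at 3.20 FPKM in high fat 2 and Kmt2e at 3.38 in high fat 4. No gene was listed only on the high fat diet. On the control diet only, 10 were listed: Kdm3b, Kdm4a, Kdm7a, Kmt2b, Kmt2d, Smarca5, Chd5, Hdac1, Hdac7 and Hdac8. Of these, Chd5, Kdm7a, Hdac1 and Hdac7 had a row in 1 or 2 control libraries and were not tested, like Chd6. The other 6 are among the 44 chromatin genes tested below, beside 422 of all 7983 tested genes without a high fat row. The share of all identifiers listed on the control diet only was not counted.

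**Figure D2:**
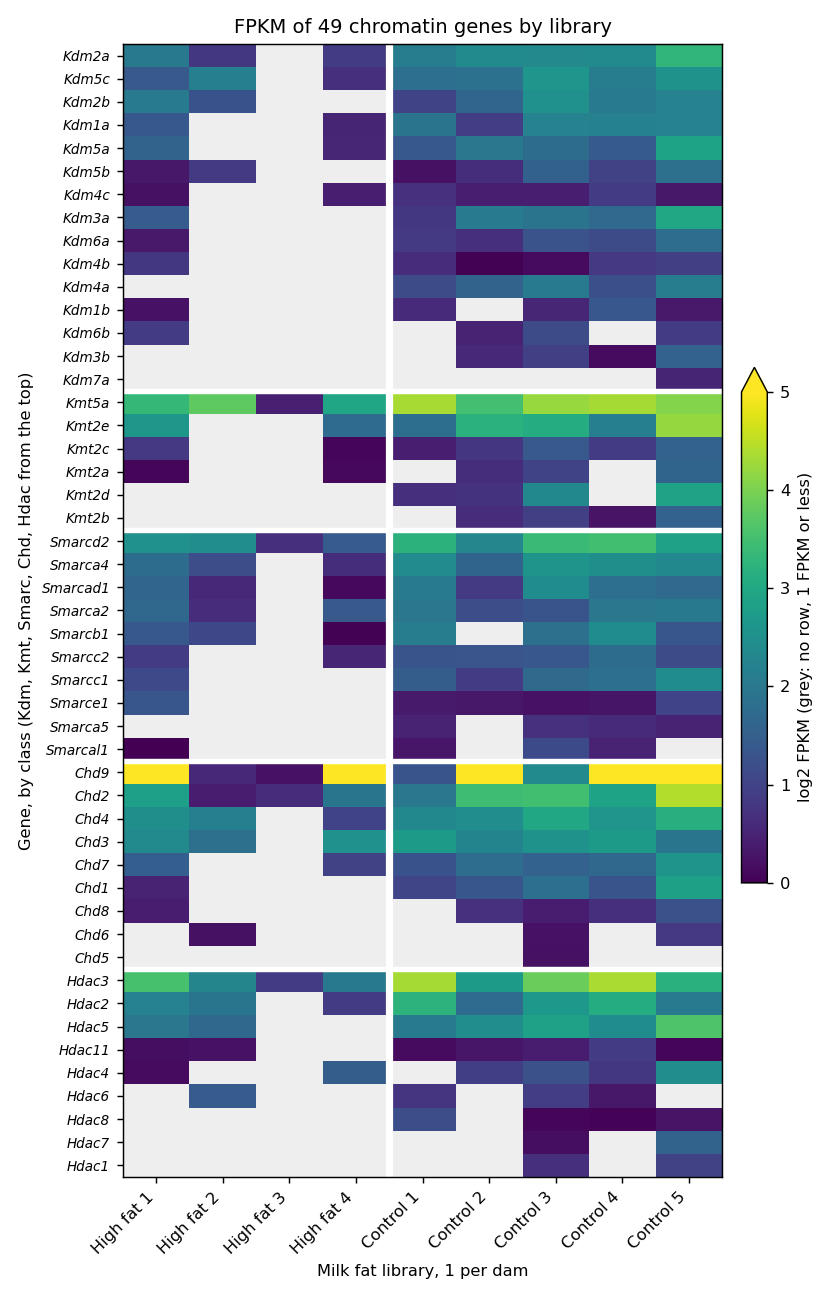
Heat map of log2 FPKM for the 49 genes (rows, by class) in the 4 high fat and 5 control libraries (columns), with grey for a gene without a row and the scale capped at 5. The high fat 3 column is grey but for 5 genes, and the control 3 and control 5 columns have rows for 48 and 46.

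The second question was whether the genes differed between the diets. Of the 44 tested genes, 13 were lower on the high fat diet at a limma adjusted p under 0.05, which is 29.5%, beside 20.8% of all 7983 tested genes. None was higher, beside 0% of all tested genes. By unadjusted p under 0.05, 27 of the 44 were lower, or 61.4%, beside 49.5% of all. The high fat values lay wholly below the control values for 6 of the 44, or 13.6%, beside 11.1% of all. The median log2 fold change, high fat minus control, was -1.11 for the 44 genes and -1.08 for all tested genes, so the typical chromatin gene differed from the typical gene by -0.03.

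The filter kept genes at 1 FPKM or more in at least 4 libraries, which a gene can pass through the control libraries alone. Among the tested genes, 31 of the 44 chromatin genes and 6055 of the 7983 were listed in all 5 control libraries and so met it this way. No high fat row at all stood behind 6 of the 44 and 422 of the 7983. With every unlisted value set to 1 FPKM, the upper limit for a gene without a row, the medians were -0.65 for the chromatin genes and -0.71 for all. At that setting 0 of the 44 were called lower, beside 1.09% of all tested genes, so the calls below rest on unlisted values set to 0. Rescaling the libraries moved the median of all genes to -0.55 with median-of-ratios size factors, -0.61 with equal sums and -0.10 with quantile normalization. Under each of these, 0 of the 44 and 0 of the 7983 genes passed, and the positive signs numbered 2, 2 and 15 of 44. The lower values given below are therefore changes on the FPKM scale as deposited, and fold changes of single genes are given with their difference from the median of all genes.

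**Figure D3:**
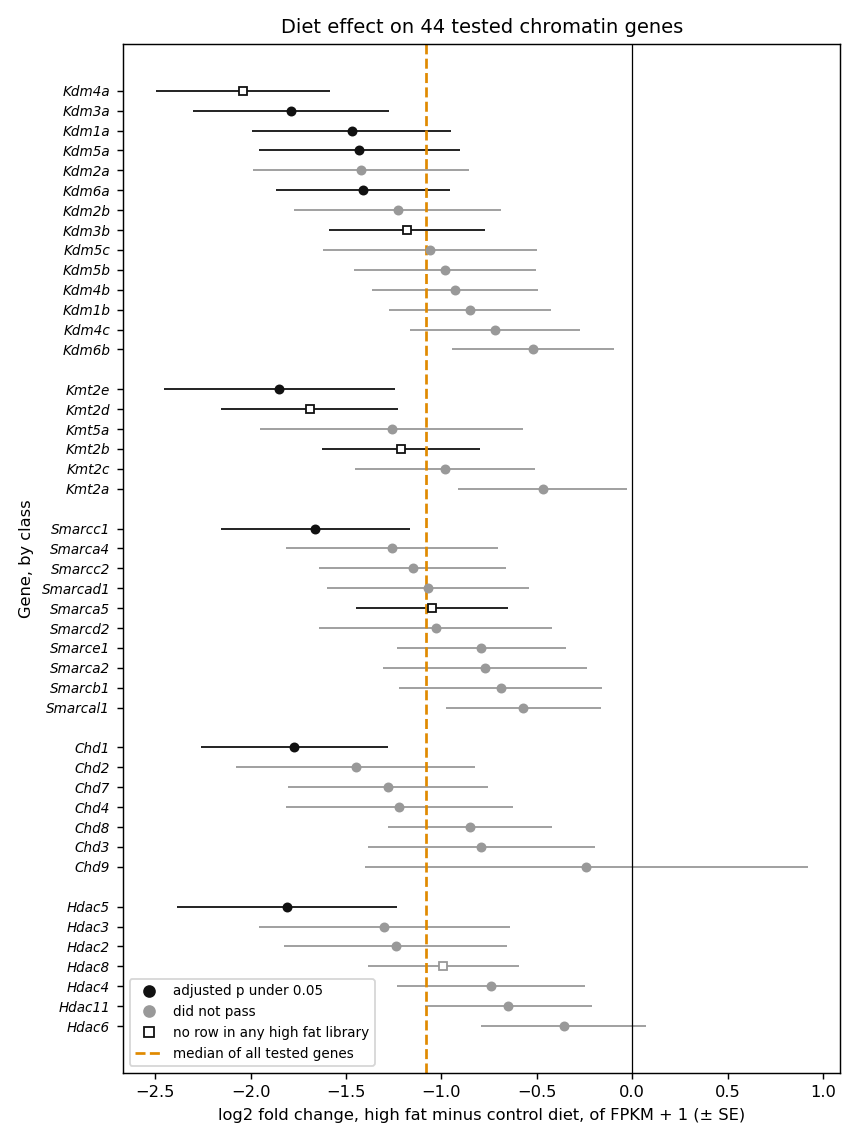
Log2 fold change of FPKM + 1, high fat minus control diet, with its standard error, for the 44 tested genes by class. Black points passed an adjusted p of 0.05, open squares had no high fat row, so that their position depends on the added 1 FPKM, and the dashed line is the median of all tested genes at -1.08.

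Among the Kdm demethylases, 6 of 14 tested genes fell, beside 20.8% of all tested genes, and the class median was -1.21. All 6 met the filter by their control rows, and Kdm4a and Kdm3b had no high fat row at all. Kdm4a, an eraser of methyl marks on lysines of histone H3 (chr4:118136957-118180043, GRCm38), was unlisted in all 4 high fat libraries, against 2.22, 3.03, 4.13, 2.33 and 4.33 FPKM in control libraries 1 to 5. It had the smallest p of the 44 tested genes (limma adjusted p = 0.00801), which rests on high fat values set to 0, and with unlisted genes at 1 FPKM it did not pass (limma adjusted p = 0.0516). No fold is given because no high fat value was listed. Kdm3b, a demethylase of repressive H3 marks, was likewise unlisted on the high fat diet, against 1.49, 1.92, 1.11 and 2.96 FPKM in control 2 to 5 (limma adjusted p = 0.0386).

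Kdm3a, its close relative, had 2.73 FPKM in high fat 1 and no row in high fat 2 to 4, against 1.76, 4.18, 3.79, 3.26 and 7.95 FPKM in the control libraries. High fat 1 lay above control 1, so the diets overlapped (log2 fold change -1.79, SE 0.514, limma adjusted p = 0.0243, -0.72 from the median of all genes). With unlisted genes at 1 FPKM rather than 0, its fold change was -1.04 and did not pass (limma adjusted p = 0.0628). Kdm6a, the X-linked demethylase UTX that removes a Polycomb mark, had 1.27 FPKM in high fat 1 alone, against 1.80, 1.63, 2.42, 2.25 and 3.47 FPKM in the control libraries. Its diets did not overlap (log2 fold change -1.41, SE 0.457, limma adjusted p = 0.0326, -0.33 from the median of all genes). At 1 FPKM for unlisted genes, the fold change of Kdm6a was -0.66 and did not pass (limma adjusted p = 0.0619).

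Kdm1a and Kdm5a, which both act on methyl marks of active promoters, also fell. Kdm1a, known as LSD1, had 2.58 and 1.43 FPKM in high fat 1 and 4, against 1.87 to 4.66 in the control libraries (limma adjusted p = 0.0414). Kdm5a had 3.02 and 1.44 FPKM in the same high fat libraries, against 2.58 to 7.44 in the control libraries (limma adjusted p = 0.0453). For both genes high fat 1 lay inside the control range. Kdm2a, the most abundant demethylase, had 4.04, 1.76 and 1.85 FPKM in high fat 1, 2 and 4 and no row in high fat 3, against 4.28, 5.17, 5.11, 5.27 and 9.84 in the control libraries. All of its control values were above its high fat values, yet it did not pass (limma adjusted p = 0.0558). The remaining 7 tested demethylases, Kdm1b, Kdm2b, Kdm4b, Kdm4c, Kdm5b, Kdm5c and Kdm6b, did not pass, with log2 fold changes of -1.23 to -0.52, which is -0.15 to 0.56 from the median of all genes. Kdm5c, an X-linked relative of Kdm5a, had 2.64, 4.49 and 1.60 FPKM in high fat 1, 2 and 4, against 3.53, 3.62, 6.15, 4.28 and 5.89 in the control libraries, so high fat 2 exceeded 3 of the 5 control libraries.

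Among the Kmt methyltransferases, 3 of 6 fell, Kmt2e, Kmt2d and Kmt2b, beside 20.8% of all tested genes. All 3 met the filter by their control rows, and Kmt2d and Kmt2b had no high fat row, so their high fat values were set to 0. Kmt2e, a reader protein of this family for which methyltransferase activity is weak or absent (chr5:23434441-23504235), had 6.26 and 3.38 FPKM in high fat 1 and 4 and no row in high fat 2 and 3, against 3.48, 9.16, 8.60, 4.46 and 18.5 FPKM in the control libraries. High fat 1 exceeded control 1 and control 4 (log2 fold change -1.85, SE 0.606, limma adjusted p = 0.0332, -0.78 from the median of all genes). With unlisted genes at 1 FPKM, the fold change of Kmt2e was -1.35 and did not pass (limma adjusted p = 0.0652). Kmt2d, a methyltransferase of enhancers, was unlisted in all high fat libraries, against 1.60, 1.67, 5.04 and 7.42 FPKM in control 1, 2, 3 and 5 (limma adjusted p = 0.0202). It was unlisted in control 4 as well, so the diets met at the listing limit. Kmt2b, which acts at promoters, was unlisted in all high fat libraries, against 1.56, 1.93, 1.21 and 2.96 FPKM in control 2 to 5 (limma adjusted p = 0.0378).

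Kmt5a, which puts a single methyl group on histone H4 and is needed for chromosome condensation, was the most abundant of the family (chr5:124439930-124462308). It had 10.1, 13.5, 1.36 and 7.70 FPKM in high fat libraries 1 to 4, against 20.5, 11.3, 18.8, 20.2 and 16.9 FPKM in control libraries 1 to 5. High fat 2 lay above control 2 and high fat 3 was far below the rest. The means were 8.16 ± 5.12 FPKM in high fat dams (SD, n = 4) and 17.5 ± 3.74 in control dams (SD, n = 5), and the difference did not pass (log2 fold change -1.26, SE 0.688, limma adjusted p = 0.122, -0.18 from the median of all genes). Kmt2a and Kmt2c did not pass either. Kmt2a, the founding MLL gene, had 1.07 and 1.08 FPKM in high fat 1 and 4, against 1.57, 2.04 and 3.07 in control 2, 3 and 5, with a log2 fold change of -0.47, which is 0.61 above the median of all genes and among the 3 highest of the 44.

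**Figure D4:**
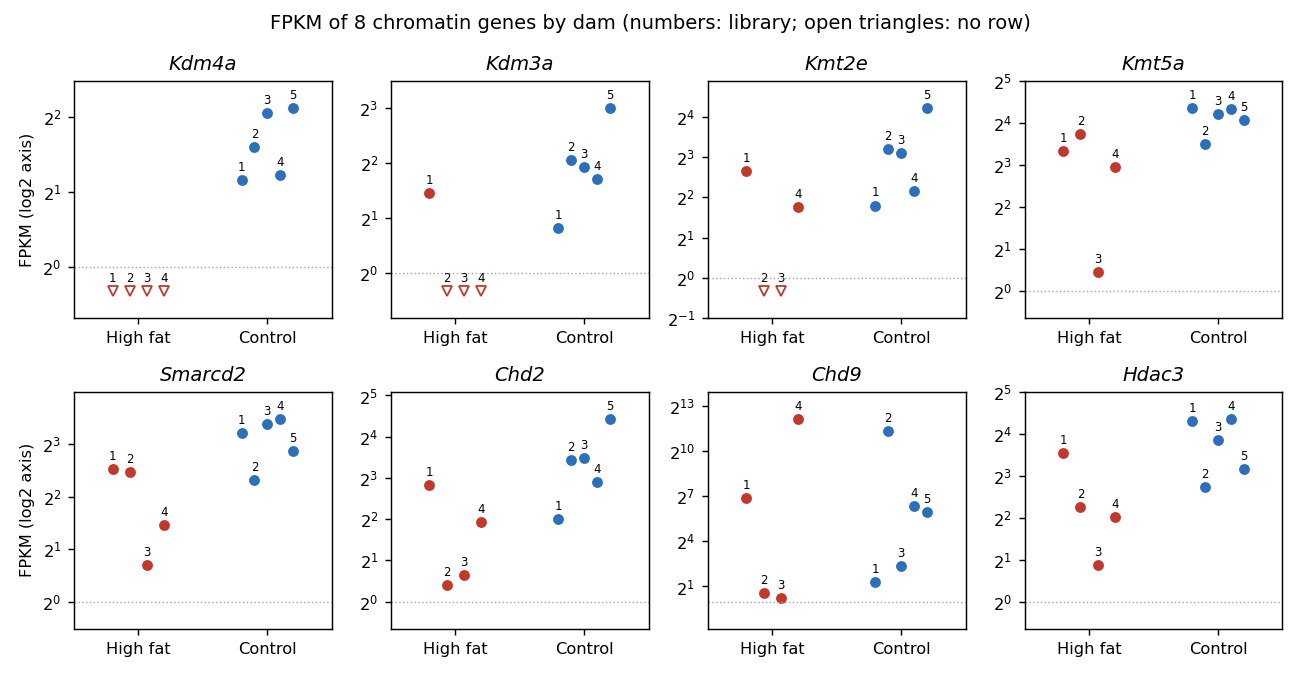
FPKM on a log2 axis of 8 of the genes in each high fat (left) and control (right) library, with library numbers beside the points and open triangles for libraries without a row. Kdm4a has no high fat value, Kmt5a, Smarcd2, Chd2 and Hdac3 overlap between the diets, and Chd9 runs from 1.18 to 4427 FPKM.

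Among the Smarc genes, 2 of 10 fell, Smarcc1 and Smarca5, beside 20.8% of all tested genes, and the class median of -1.04 was 0.03 above that of all genes. Smarcc1 encodes BAF155, a core scaffold of the SWI/SNF remodeling complex. It had 2.16 FPKM in high fat 1 and no row in the other high fat libraries, against 2.78, 1.83, 3.33, 3.53 and 5.41 FPKM in the control libraries. High fat 1 exceeded control 2 (log2 fold change -1.66, SE 0.493, limma adjusted p = 0.0265, -0.59 from the median of all genes). With unlisted genes at 1 FPKM, the fold change of Smarcc1 was -0.91 and did not pass (limma adjusted p = 0.0628). Smarca5 encodes SNF2H, the motor of the separate ISWI complexes, and was unlisted in all high fat libraries and control 2, against 1.40, 1.64, 1.54 and 1.39 FPKM in control 1, 3, 4 and 5 (limma adjusted p = 0.0484, with the unlisted values at 0).

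The SWI/SNF motor and its most abundant subunit did not pass. Smarca4, which encodes the motor BRG1, had 3.42, 2.27 and 1.58 FPKM in high fat 1, 2 and 4, against 5.34, 3.07, 6.05, 5.64 and 5.03 in the control libraries (limma adjusted p = 0.0728). Smarcd2, an accessory subunit, had 5.78, 5.51, 1.61 and 2.74 FPKM in high fat libraries 1 to 4, against 9.25, 4.95, 10.4, 11.1 and 7.31 in the control libraries. High fat 1 and 2 exceeded control 2, and the means were 3.91 ± 2.06 FPKM in high fat dams (SD, n = 4) and 8.61 ± 2.50 in control dams (SD, n = 5; limma adjusted p = 0.146). Smarcc2, the paralog of Smarcc1, had 1.85 and 1.45 FPKM in high fat 1 and 4, against 2.23 to 3.42 in the control libraries, with no overlap and a limma adjusted p of 0.0667. Smarce1 had 2.54 FPKM in high fat 1, above all 5 control libraries at 1.19 to 2.02, and no row in the other high fat libraries. A processed copy, Smarce1-ps1, had 1.66 FPKM in high fat 1, against 2.59 to 3.06 in the 4 control libraries that listed it, so how reads were shared between the gene and its copy is uncertain.

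Among the Chd remodelers, 1 of 7 tested genes fell, beside 20.8% of all tested genes. Chd1, which works at transcribed genes (chr17:15704967-15772610), had 1.41 FPKM in high fat 1 alone, against 2.08, 2.53, 3.54, 2.46 and 7.14 FPKM in the control libraries, with no overlap (log2 fold change -1.77, SE 0.488, limma adjusted p = 0.0203, -0.69 from the median of all genes). With unlisted genes at 1 FPKM, the fold change of Chd1 was -1.02 and did not pass (limma adjusted p = 0.0589). Its gene identifier also carried a row at a locus that GENCODE M21 annotates as Riok2, in all libraries but high fat 3 and 4. Those rows were left out, and in high fat 2 that was the sole row under the identifier.

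Chd2 and Chd4 did not pass. Chd2 had 7.05, 1.31, 1.56 and 3.83 FPKM in high fat libraries 1 to 4, against 4.01, 10.9, 11.1, 7.46 and 21.5 in control libraries 1 to 5. High fat 1 exceeded control 1, and control 5 stood at the top (3.44 ± 2.66 FPKM on the high fat diet, SD, n = 4; 11.0 ± 6.56 on the control diet, SD, n = 5; limma adjusted p = 0.0681). Chd4, the motor of the NuRD complex that joins remodeling to deacetylation, had 5.63, 4.46 and 2.01 FPKM in high fat 1, 2 and 4, against 5.03 to 8.74 in the control libraries (limma adjusted p = 0.0941). Chd7, the gene mutated in CHARGE syndrome in humans, had 2.82 and 1.95 FPKM in high fat 1 and 4, against 2.38 to 5.98 in the control libraries (limma adjusted p = 0.0586).

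Chd9, a remodeler related to Chd7, spanned the widest range of the 49 genes. It had 117, 1.48, 1.18 and 4427 FPKM in high fat libraries 1 to 4, against 2.45, 2504, 5.19, 80.3 and 60.3 FPKM in control libraries 1 to 5. Its extremes were thus high fat 4 and control 2 at the top, with high fat 2 and 3 and control 1 at the bottom, and the diets overlapped over nearly the whole range (log2 fold change -0.24, SE 1.16, limma adjusted p = 0.844, 0.84 above the median of all genes). The fold change was 0.70 with median-of-ratios size factors, 0.56 with quantile normalization and 0.55 with equal sums, so its direction flips with the scaling.

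The gene spans 226165 bases (chr8:90828352-91054516), and these values are per annotated gene, so where in the gene the reads lie is not known. Among all tested genes, the 6 with the most similar profile by Pearson's r of log2(FPKM + 1) over the 9 libraries were Gm26809, Gm37416, Gm42427, Cnbd2, AI506816 and Cep85, with r of 0.986 to 0.934. Like Chd9, all 6 had their highest value in high fat 4 and the next in control 2. For Gm37416 these were 4375 and 1109 FPKM. They lie on chromosomes 2, 4, 5 and 6, and 4 of the 6 are annotated as non-coding or as loci still to be classed.

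Among the Hdac deacetylases, 1 of 7 tested genes fell, beside 20.8% of all tested genes, and the class median of -0.99 was 0.09 above that of all genes. Hdac5, a deacetylase that shuttles between nucleus and cytoplasm (chr11:102194432-102230166), had 3.93 and 3.20 FPKM in high fat 1 and 2 and no row in high fat 3 and 4, against 4.09, 5.50, 7.28, 5.37 and 12.4 FPKM in the control libraries, with no overlap. Its log2 fold change was -1.81 (SE 0.577, limma adjusted p = 0.0316, -0.73 from the median of all genes). With unlisted genes at 1 FPKM it was -1.31 and did not pass (limma adjusted p = 0.0628).

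Hdac3, the catalytic partner of the NCoR corepressor and the most abundant deacetylase, had 11.6, 4.83, 1.85 and 4.04 FPKM in high fat libraries 1 to 4, against 20.0, 6.65, 14.5, 20.6 and 8.99 in control libraries 1 to 5. High fat 1 exceeded control 2 and control 5 (5.59 ± 4.23 FPKM on the high fat diet, SD, n = 4; 14.1 ± 6.29 on the control diet, SD, n = 5; limma adjusted p = 0.103). Hdac2 had 4.65, 3.82 and 1.82 FPKM in high fat 1, 2 and 4, against 9.38, 3.34, 6.37, 8.54 and 4.20 in the control libraries (limma adjusted p = 0.0879). Hdac8, an X-linked deacetylase, was unlisted on the high fat diet, against 2.31, 1.07, 1.03 and 1.20 FPKM in control 1, 3, 4 and 5, near the listing limit (limma adjusted p = 0.0558). Hdac6, which acts on tubulin in the cytoplasm, had its highest value in high fat 2, at 2.70 FPKM, against 1.71, 1.88 and 1.26 in control 1, 3 and 4. Hdac1 was listed in control 3 and 5, at 1.60 and 1.98 FPKM. Its processed copy Gm10093 was listed at 2.79 and 1.39 FPKM in high fat 1 and 2 and at 1.50 to 4.74 in all 5 control libraries, so the level of Hdac1 is uncertain.

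On the deposited scale all 44 tested chromatin genes had a negative fold change, as did 7890 of the 7983 genes, though 2 to 15 of the 44 turned positive on rescaling. The high fat libraries differed among themselves. Of the chromatin genes listed both in high fat 1 and in all 5 control libraries, 21 lay within the control range in high fat 1, 8 lay below it and 1, Smarce1, above it. The same positions were not counted over all genes, so these numbers are not particular to the chromatin genes. Without high fat 1, 33 of 42 tested chromatin genes were lower, beside 68.9% of all tested genes. Without high fat 3, 1 of 44 was lower, Kdm4a, beside 0.213% of all. Without both high fat 2 and high fat 3, 0 of 43 were lower, beside 0% of all.

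The third question was how the chromatin genes varied among the control dams, where 31 of them were listed in all 5 libraries. This pattern was picked out after the values were seen and is given as a description. Of the 31 genes, 18 had their highest control value in control 5 (58.1%), 6 in control 4, 4 in control 3, 2 in control 1 and 1 in control 2. Of 5218 protein-coding genes listed in all 5, the highest value was in control 5 for 25.1% and in control 1 for 35.1%. The log2 ratio of control 5 to control 1 had a median of 0.80 over the 31 chromatin genes and -0.48 over the protein-coding genes.

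Single genes went opposite ways. Chd2, Kmt2e and Kdm3a were higher in control 5 than in control 1 by 2.42, 2.41 and 2.17 on the log2 scale. Hdac2 and Hdac3 had ratios of -1.16 and -1.15, and Chd3, another motor of NuRD, had -0.77. Kmt5a and Smarcd2, which were among the 5 genes listed everywhere, had ratios of -0.28 and -0.34.

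The ratio went with transcript length. The longest annotated transcript of the 49 genes had a median of 6113 bases, beside 3271 for all protein-coding genes with a row, and ran from 2038 bases for Hdac1 to 19823 for Kmt2d. Among the 31 genes, the 7 with transcripts under 4000 bases had a median log2 ratio of control 5 to control 1 of -0.28, the 17 between 4000 and 8000 had 0.80, and the 7 longer ones had 1.53. For protein-coding genes these medians were -0.81, 0.15 and 0.59. Spearman's rho with transcript length was 0.661 over the 31 genes and 0.458 over the 5218, each across genes of the same 2 libraries, which are not independent replicates. Whether RNA integrity, library preparation or the dams themselves differed was not tested.

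**Figure D5:**
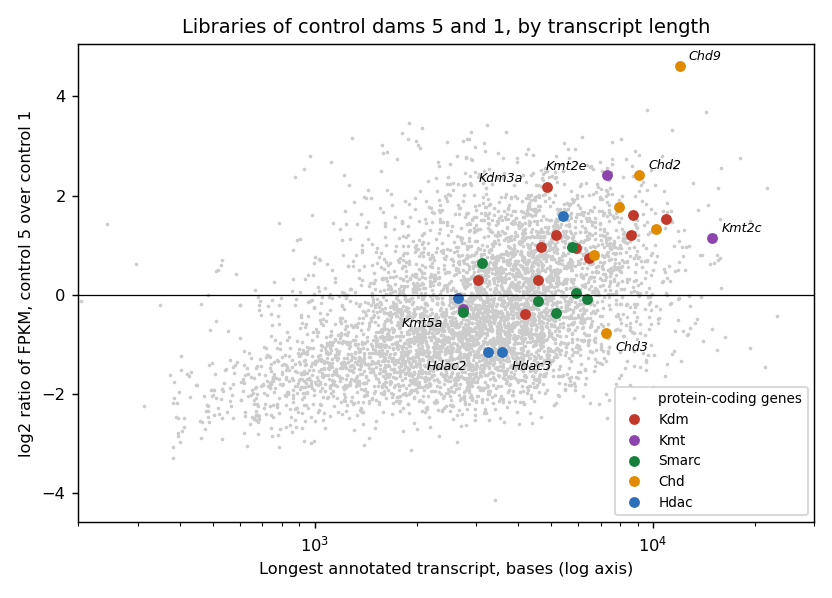
Log2 ratio of FPKM in control 5 to control 1 against the length of the longest annotated transcript (log axis), for 31 chromatin genes coloured by class and 5218 protein-coding genes in grey. Most chromatin genes with long transcripts lie above 0, while Hdac2 and Hdac3 lie near -1.16 and -1.15.

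The nuclear-retained long RNAs Malat1 and Neat1 differed between the same control libraries. Malat1, a long RNA of nuclear speckles, had 351, 18.5, 7.80 and 65.0 FPKM in high fat libraries 1 to 4, against 87.7, 811, 1041, 156 and 1840 FPKM in control libraries 1 to 5. It was highest in control 5 and lowest of the control libraries in control 1, and lower in high fat dams (limma adjusted p = 0.0233, log2 fold change -3.38, which is -2.30 from the median of all genes). Neat1, the scaffold RNA of paraspeckles, had 10.4, 2.14 and 4.62 FPKM in high fat 1, 2 and 4, against 6.20, 49.8, 37.2, 11.6 and 88.6 in the control libraries (limma adjusted p = 0.0161, log2 fold change -2.87, which is -1.79 from the median of all genes). Among the high fat libraries both RNAs were highest in high fat 1. That library listed the most chromatin genes of the high fat libraries, 37, and also the most genes of any kind, 7974. The part of Malat1 and Neat1 in the values of the chromatin genes was not tested.

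Other genes of the same machinery, which the symbols above do not take in, were counted in 11 lists of partner subunits and related enzymes. Of 254 genes, 216 had a row and 176 were tested, of which 49 were lower, or 27.8%, beside 20.8% of all tested genes, and 0 higher. Their median log2 fold change was -1.11, which is -0.03 from that of all genes. By list, the lower genes numbered 3 of 12 tested partners of the COMPASS methyltransferase complexes, 6 of 23 other histone methyltransferases, 3 of 4 genes grouped with the demethylases and 3 of 11 SWI/SNF partners. The 3 grouped with the demethylases were Jmjd1c, Jmjd6 and Jarid2, and demethylase activity is not established for all of them. They numbered 7 of 29 partners of NuRD, Sin3, CoREST and NCoR, 5 of 24 ISWI and INO80 genes, 9 of 30 acetyltransferase genes, 1 of 6 sirtuins, 6 of 15 Polycomb genes, 3 of 8 DNA methylation genes and 4 of 16 HP1 and bromodomain genes. The 20.8% of all tested genes stands beside each of these counts, and no list was tested as a whole. List medians ran from -1.36 for the genes grouped with the demethylases to -0.78 for sirtuins.

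Several partners were unlisted on the high fat diet like Kdm4a. They are among the 422 of 7983 tested genes without a high fat row, so their p-values rest on high fat values set to 0. Hcfc1, a cofactor of COMPASS complexes, had 1.45, 1.56, 2.29, 1.44 and 3.05 FPKM in the control libraries and no row in any high fat library (limma adjusted p = 0.0205). The same held for Brd9, a bromodomain subunit of SWI/SNF, at 1.34 to 2.27 FPKM (limma adjusted p = 0.0214), for Suv420h2, now named Kmt5c, at 1.34 to 1.96 (limma adjusted p = 0.0262), and for Hells, a remodeler linked to DNA methylation, at 1.43 to 6.45 (limma adjusted p = 0.0120). Cecr2, a bromodomain partner of ISWI motors, was at 1.05 to 4.88 FPKM in the control libraries and unlisted on the high fat diet (limma adjusted p = 0.0194).

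The acetylation machinery had 2 widely studied genes among those that fell. Ep300, the p300 acetyltransferase, had 1.83 FPKM in high fat 1 alone, against 1.38, 3.96, 4.79, 1.88 and 5.94 in the control libraries (limma adjusted p = 0.0251). Brd2, a reader of acetylated histones, had 8.67, 4.23 and 4.15 FPKM in high fat 1, 2 and 4, against 8.21, 15.7, 24.7, 10.3 and 37.6 in the control libraries (limma adjusted p = 0.0313). Jmjd6 (limma adjusted p = 0.0414), Jarid2 (0.0383), Mtf2 (0.0224), Sap18 (0.0322) and Uhrf2 (0.0322) passed as well. Jarid2 and Mtf2 were listed in high fat 1 alone on that diet. Sirt1 also passed (limma adjusted p = 0.0436), but it had no high fat row, so its p-value rests on high fat values set to 0. It had 1.27, 2.12, 1.35 and 1.78 FPKM in control 1, 3, 4 and 5. The most abundant genes of the other lists, Dpy30, Ehmt1, Actl6a, Sin3b, Znhit1, Naa50, Sirt7 and Eed, did not pass (limma adjusted p 0.0892 to 0.441). Ehmt1, which methylates histone H3 at silenced genes, had 8.02, 3.38, 1.07 and 8.16 FPKM in the high fat libraries, against 6.72, 3.66, 7.66, 7.55 and 7.37 in the control libraries, and high fat 4 was its highest value.

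The promoters of the 49 genes were compared for CpG content in RefSeq windows (GRCm38.p6) of 250 bases before to 50 after each start. A window was found for 35 of the 49. The motif searched was CG, which reads the same on both strands. It occurred a median of 24 times in the windows of the chromatin genes and 22 times in those of 7164 protein-coding genes with a row, and at least once in 34 of the 35 and in 99.6% of the 7164. This count is a description only.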

How the data were processed

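Each library's deposited table holds the authors' FPKM for every gene above 1 and the confidence bounds, per the file headers. Tools named in the submitters' processing notes are Trimmomatic, FastQC, TopHat, Bowtie2, HTSeq, Cufflinks and DESeq2. Tool versions, genome build and strand setting were not given in the sources used here. Libraries came from a stranded total RNA kit, per the labels' protocols. Coordinates are the files' own, 1-based, and equal GENCODE M21 (GRCm38) bounds for 44 of the 49 genes. Of 60 protein-coding M21 genes that meet the symbol rule, 49 had a row under that symbol, 2 under the older names Suv420h1 and Suv420h2, which were counted with the partner lists, and 9 had no row in any library (Chd1l, Hdac9, Hdac10, Kdm4d, Kdm5d, Kdm8, Smarca1, Smarcd1 and Smarcd3). Names ending in -ps were dropped.

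FPKM per gene was tested in limma 3.58.1 (R 4.3.3) on log2(FPKM + 1) with a mean-variance trend, diet as the only term and Benjamini-Hochberg adjustment over 7983 genes. The added 1 understates changes of low listed values. Entering unlisted values as 0 can instead enlarge the difference of a gene with few or no high fat rows. With unlisted genes at 1 FPKM, the median of the 44 chromatin genes moved from -1.11 to -0.65. The genes, lists and alternatives were chosen with earlier results of these data known. Genes named are, per class, the 4 of smallest p and the most abundant, then those of highest fold change, those listed in 1 diet in 3 or more libraries or in all 9, and per partner list the smallest p and the most abundant. Kdm1a, Kdm5a, Kdm5c, Smarce1, Chd3, Hdac1 and the genes most like Chd9 were added after their values were seen.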

Additional observations from a re-analysis of the deposited data

Results flagged for a closer look

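For 36 sets of values, each a chromatin gene in a diet whose libraries all listed it, the gap between an end value and its neighbour was set against the whole range. In 6 of them that share passed Dixon's 95% critical value, which about 1 in 20 independent normal samples would pass. These sets hold raw FPKM and share libraries, so the 6 of 36 cannot be read against that rate. Chd9 was far above the rest in high fat 4, at 4427 FPKM with the next at 117 (0.974 of the range), and in control 2, at 2504 FPKM with the next at 80.3 (0.969). Chd1, Kdm2a and Smarce1 were far above the other control libraries in control 5. For Chd1 the value was 7.14 FPKM with the next at 3.54 (0.711), for Kdm2a 9.84 with the next at 5.27 (0.821), and for Smarce1 2.02 with the next at 1.28 (0.883). Smarcc2 was highest in control 4, at 3.42 FPKM with the next at 2.55 (0.726).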

How the results depend on the processing

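The count of chromatin genes lower on the high fat diet, 13, was 1 with a pseudocount of 0.1 (1.82% of all genes). It was 0 with no filter (0.116% of all) and with genes listed in all 9 libraries (5 tested, 0.812% of all). With unlisted genes at 1 FPKM and without the mean-variance trend it was 0 as well (1.09% and 0.138% of all). It was also 0, beside 0% of all genes, under each of 3 rescalings, with listed gene number as covariate, and without high fat 2 and 3 together. With array weights it was 37 of 44, or 84.1%, as of all genes, and 1 gene, Chd9, was higher, beside 14 of all 7983. Leaving out 1 library gave 1 to 33 lower and 0 higher. It was 33 of 42 without high fat 1 (68.9% of all genes), 1 of 43, 1 of 44 and 2 of 44 without high fat 2, 3 or 4 (0.911%, 0.213% and 1.98%), 9 of 39 and 10 of 40, or 25%, without control 1 or 2 (13.2% and 28.8%), and 1 of 36, 5 of 38 and 1 of 38 without control 3, 4 or 5 (2.48%, 5.75% and 4.43%). Taking repeated identifiers at their highest FPKM, chosen after seeing the data, kept all 13. With the replicate block 0 passed, beside 0.363% of all genes lower. Same-numbered libraries correlated at -0.285 to 0.142 after removal of the diet means. So few pairs cannot show whether the numbers pair dams. The difference of the members' median from that of all genes ran from -0.30 to 0.07. Of 526 values of named genes under alternatives, 326 kept direction and call, 154 lost the call, 25 gained it and 21 changed sign. The sign changes were Chd9 (0.70, 0.56 and 0.55 under the rescalings, 5.37 with array weights, 1.03 with the covariate, 1.11, 1.17 and 1.18 without high fat 2, high fat 3 or control 2, 3.90 without high fat 2 and 3), Hdac6 (0.02, 0.44 and 0.02 under the rescalings), Hdac8 (0.03), Smarcd2 (0.08) and Kmt2a (0.17) with quantile normalization, Kmt2a without high fat 2 and 3 (0.06), and, with the covariate, Chd4 (0.25), Hdac2 (0.20), Hdac3 (0.01), Kmt2a (0.01) and Kmt5a (0.03). Over all libraries left out in turn, Chd9 ran from -2.49 to 1.18. The cause was not tested. The absence of values at or below 1 FPKM limits every comparison of low genes.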
